A study of Mus musculus with 2 samples.

Results

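Immediate early genes and heat shock genes are switched on within minutes of a stimulus, and in tissue they respond to injury, to altered blood flow and also to the enzymes and warmth used to free cells for sequencing. A module of 38 such genes was read out, 34 of the early response and 4 of heat shock, out of the 32285 genes in the count tables. Each was found by its gene symbol, and all 38 were present.

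The cells came from mouse carotid arteries 18 hours after a temporary ligation had injured the endothelium, the inner cell layer of the vessel. Of the 2 libraries, 1 was labelled EC-Cx43-KO and came from mice of genotype CDH5 Cre+ Cx43fl/fl, in which the Cdh5 promoter drives a Cre recombinase, described as inducible, in endothelial cells. The other was the control library, from CDH5 Cre- Cx43fl/fl mice, which carry the same floxed allele of the connexin 43 gene (Gja1) without Cre. Both went through the injury, a digest of 20 minutes at 37 °C, red cell lysis and freezing in 10% DMSO, and arteries of 1 genotype were pooled, up to 5 at a time. Neither library came from uninjured or undigested tissue, so the effects of injury and of preparation on these genes cannot be told apart. With 1 library per group there is no replicate and no test between groups; each interval below is at 95% and covers counting error only.

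The library labelled EC-Cx43-KO held 8315 barcodes and 54392831 UMIs (unique molecular identifiers, each counting 1 captured RNA molecule), and the control library 7298 barcodes and 48862850 UMIs. After filters on genes, mitochondrial share and doublets, 7236 and 6376 cells remained; 17 barcode sequences occurred in both libraries. Endothelial cell (EC)-like cells numbered 580 in the library labelled EC-Cx43-KO and 477 in the control library, with all 17 endothelial markers detected in each. Of these, 85 and 73 cells formed a shallow subcluster led by S100a8 and Ccl2, with median 800 and 728 UMIs per cell. Over all EC-like cells Gja1 was not lower in the library labelled EC-Cx43-KO: it had 147 UMIs, or 34.7 CPM (UMIs per 1000000 UMIs of the class), there and 91 UMIs, or 22.5 CPM, in the control library. A subcluster led by the capillary genes Fabp4 and Cd36, with 46 cells in the library labelled EC-Cx43-KO and 7 in the control library, held 85 and 24 of these UMIs. Within that subcluster Gja1 was lower, at 308 and 600 CPM (log2 ratio -0.96, -1.63 to -0.24), and so it was in a subcluster led by Pde7b, with 2 and 16 UMIs. In a subcluster led by Ccnd1 it had 84.6 and 56.5 CPM with an interval that included 0, and the 5 other subclusters held at most 4 UMIs each per library. Without the capillary-gene-led cells the level was 15.6 and 16.8 CPM (-0.10, -0.62 to 0.42), so Gja1 gave no uniform check of the labels, and each direction below is between libraries as labelled. Both libraries mixed cells with Xist UMIs and cells with Y-linked UMIs, in unlike proportion: among EC-like cells, 157 had Xist and no Y-linked UMI and 211 had the reverse in the library labelled EC-Cx43-KO, against 218 and 101 in the control library.

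Early response proteins fall into a few working groups. Fos and Jun proteins pair as the transcription factor AP-1, while Egr, Nr4a and Klf proteins are zinc finger or nuclear receptor factors; Klf2 and Klf4 are also kept high in endothelium by steady laminar flow. Zfp36 proteins speed the decay of AU-rich messages, Dusp phosphatases switch off MAP kinases, Nfkbia holds NF-kappaB in the cytoplasm and Socs3 damps cytokine receptors, so that many early genes shut the response down again. Heat shock proteins refold damaged proteins under the control of heat shock factors.

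Regulatory letters close to the transcription start are shown first, since several groups of these genes are known to be driven through them. RefSeq promoters of build GRCm38.p6, 250 bases before to 50 after each start, were given for 32 of the 38 genes and searched on both strands. None was given for Fosl1, Egr1, Egr3, Myc, Ier2 and Hspa8. Bases further upstream were not searched, so a gene without a match, such as Fos, may hold an element there. The serum response element, bound by serum response factor, occurred in 3 of the 32 (Egr2, Zfp36 and Dusp5), against 1.81% of 27025 genes with a promoter. The cyclic AMP response element, read as TGACGTCA, occurred in 4 (Maff, Btg2, Dusp1 and Ppp1r15a), against 2.03%. Heat shock elements, read as GAANNTTC or TTCNNGAA, occurred in 5 (Fosl2, Jun, Egr2, Hspa1a and Hspa1b), against 16.97%. The AP-1 site, read loosely as TGANTCA with any middle base, occurred in 1 (Zfp36l1, as TGATTCA), against 8.97% by the same loose reading. A match in these letters is a description and not a shown binding site. Windows are printed 5′ to 3′ on the strand of the gene, with the motif in capitals, for genes that the results below return to.

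Dusp5 (chr19:53529043-53529102, plus strand, 2 adjoining serum response elements; an exon of the antisense gene AC137853.2 covers it): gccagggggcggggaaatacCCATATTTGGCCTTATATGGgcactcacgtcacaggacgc
Egr2 (chr10:67537777-67537826, plus strand, shown for 1 of its starts): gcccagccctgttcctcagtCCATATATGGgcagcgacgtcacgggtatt
Dusp1 (chr17:26508588-26508635, minus strand): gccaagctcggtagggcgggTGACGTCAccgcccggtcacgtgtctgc
Btg2 (chr1:134079294-134079341, minus strand): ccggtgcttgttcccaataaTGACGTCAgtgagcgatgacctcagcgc
Hspa1a (chr17:34972233-34972280, minus strand): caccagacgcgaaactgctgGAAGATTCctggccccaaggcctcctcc
Hspa1b (chr17:34959315-34959362, minus strand): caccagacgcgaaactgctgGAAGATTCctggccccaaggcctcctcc

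The Hspa1a and Hspa1b windows are the same in every letter, each with its heat shock element 104 bases before the start. Their transcripts are near copies too: 49.1% of the 91-base words of Hspa1a also occurred in Hspa1b. None of the last 400 words did, so reads from the 3′ end can separate them, but the place of each read was not used here and their sum is given beside them.

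The module also shared features of gene structure that its choice did not use. The genes were short, with a median span of 4722.5 bases against 17318 over all 21702 protein-coding genes of the tables (GENCODE vM21). The AU-rich motif TATTTAT, a mark of messages that decay quickly, was in the longest annotated 3′ UTR of 22 of the 38 (57.9%), against 27.7% of protein-coding genes with a 3′ UTR. Fos, Zfp36, Ier3, Mcl1, Dusp1 and Ppp1r15a each held at least 2 copies, while Egr1, Klf4, Gadd45b, Hspa8 and Dnajb1 held none.

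In EC-like cells the module stood at about the same level in both libraries. All 38 genes together made up 31994 CPM in the library labelled EC-Cx43-KO and 29545 CPM in the control library. A gene was called higher or lower at a ratio of at least 1.5-fold (log2 0.58) among genes with at least 20 UMIs in the class over both libraries, which is a rule of size and not a test. Of the 37 genes measured, 0 were called higher, against 5.37% of all 11846 genes measured in EC-like cells, and 1 was called lower, against 5.88%. No test was possible, and 23 of the 37 lay above 0 and 14 below, where 42.7% of all genes measured lay above 0. The median log2 ratio was 0.10 for the module and -0.06 for all genes.

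None of the 9 AP-1 genes was called, and their median log2 ratio was 0.25. Of the 9, 7 lay above 0 and 2 below, beside 42.7% of all genes above 0. Fos, a core subunit of AP-1, stood at 5979 CPM in EC-like cells of the library labelled EC-Cx43-KO and at 4989 CPM in those of the control library, a log2 ratio of 0.26 (0.23 to 0.29). Its interval lay above 0 but its size was under the 1.5-fold rule. Jun, its main partner, had 2332 and 1958 CPM (0.25), and Atf3, a stress-induced relative, 999 and 797 CPM (0.33). The other partners differed less: Junb had 1831 and 1727 CPM, Jund 1653 and 1482 CPM, and Fosb 1301 and 1323 CPM. The scarcer members Fosl2 (65.8 and 51.5 CPM), Maff (57.6 and 48.3 CPM), a small Maf protein, and Fosl1 (15.3 and 19.1 CPM) had wider intervals. That of Fosl1, -0.81 to 0.18, included 0, and so did that of Maff.

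The zinc finger and nuclear receptor factors showed no common direction. Klf2, the flow-kept endothelial factor, had 2668 CPM in EC-like cells of the library labelled EC-Cx43-KO and 2718 CPM in those of the control library (-0.03, -0.06 to 0.01), and Klf4 had 2091 and 1947 CPM (0.10). Egr1, the classic growth-factor responder, had 2295 and 2075 CPM (0.15), and Klf6 890.2 and 906 CPM. Egr3 went the other way, at 128 and 173 CPM (-0.44, -0.60 to -0.27), and so did the nuclear receptor Nr4a3, at 21.0 and 31.2 CPM (-0.57, -0.98 to -0.17); both stayed under the 1.5-fold rule. Nr4a1 had 525 and 479 CPM, Nr4a2 134 and 119 CPM, the growth factor target Myc 48.4 and 44.1 CPM, and Egr2 23.6 and 27.0 CPM.

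Among genes that limit the response, Dusp5 was the exception. This phosphatase of the kinase ERK gave 83 UMIs, or 19.6 CPM, in the library labelled EC-Cx43-KO and 142 UMIs, or 35.2 CPM, in the control library. The log2 ratio was -0.85 (-1.25 to -0.44), the module's sole call in EC-like cells. It rested on few cells: 8.79% of the 580 and 12.2% of the 477 EC-like cells held any Dusp5 UMI. The mean of single-cell CPM, which gives shallow and deep cells the same weight, gave a log2 ratio of 0.036, almost no difference. From summed UMIs the Dusp5 ratio was -1.27 among cells with Xist and no Y-linked UMI and -0.37 among those with the reverse. Dendritic cell markers differed beside it, at 295 CPM in EC-like cells of the library labelled EC-Cx43-KO and 885 CPM in those of the control library; 9 of 12 were detected in each, Xcr1 and Siglech were at 0 in both, and their part in the Dusp5 difference was not tested.

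The other feedback genes differed little. Dusp1, which acts on stress kinases, had 1802 CPM in EC-like cells of the library labelled EC-Cx43-KO and 1718 CPM in those of the control library; Nfkbia had 309 and 282 CPM, and Ppp1r15a, which restarts translation after stress, 544 and 522 CPM. Socs3 had 181 and 145 CPM (0.32), and Dusp2 had 7 and 5 UMIs, too few for a ratio. Of the message decay and antiproliferative genes, Zfp36 had 1734 and 1747 CPM, Zfp36l1 417 and 378 CPM, Btg1 258 and 234 CPM and Btg2 739 and 613 CPM (0.27). The remaining early genes were Ier2 (1028 and 955 CPM), Ier3 (303 and 267 CPM), Ier5 (95.8 and 107 CPM), the survival gene Mcl1 (262 and 282 CPM) and Gadd45b (20.5 and 14.1 CPM; 0.54, 0.04 to 1.05), which is induced by DNA damage and cytokines.

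None of the 4 heat shock genes was called in EC-like cells. Of the 4, 3 lay below 0, which is no clear direction where only 42.7% of all genes lay above 0. Hspa1b, an inducible Hsp70, had 449 UMIs, or 106 CPM, in the library labelled EC-Cx43-KO and 617 UMIs, or 153 CPM, in the control library (-0.53, -0.71 to -0.35). Its near copy Hspa1a had 294 and 313 CPM (-0.09, -0.21 to 0.02), and their sum was 399 and 465 CPM (-0.22, -0.32 to -0.13). The constitutive Hsp70 Hspa8 had 702 and 752 CPM and its partner Dnajb1, an Hsp40, 120 and 113 CPM; none passed the 1.5-fold rule. Erythroid markers summed to 1490 CPM in EC-like cells of the library labelled EC-Cx43-KO and 608 CPM in those of the control library, and their part in these differences was not tested.

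**Figure D1:**
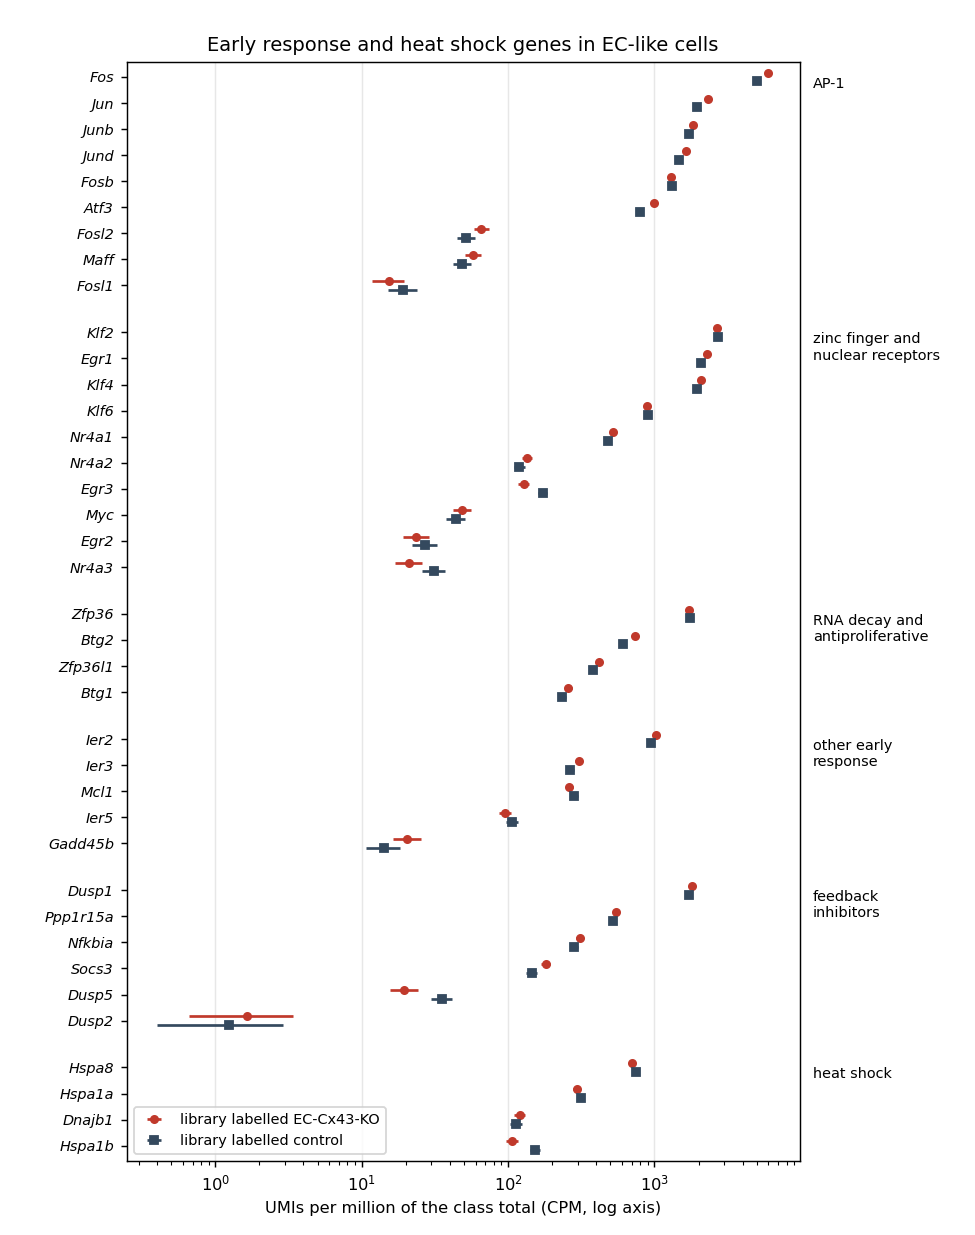
Level of each of the 38 genes in EC-like cells, in CPM on a log axis, by working group; circles are the library labelled EC-Cx43-KO, squares the control library, bars exact Poisson intervals at 95%. The pairs of points lie close together throughout, and Dusp5 (19.6 and 35.2 CPM) is the widest gap of those with at least 20 UMIs.

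Other lists tied to early response or stress are given beside the same shares of all genes in EC-like cells, 5.37% called higher and 5.88% lower, and none was tested. Of further growth-factor early genes, 23 of 26 were measured and none was called (median 0.07); Ccn1 had 1609 CPM in the library labelled EC-Cx43-KO and 1529 CPM in the control library, Rhob 1087 and 1044 CPM, Sgk1 358 and 296 CPM and Hbegf 331 and 363 CPM. Of 18 NF-kappaB targets, Nfkbie and Sele were called higher and Ccl2 lower, the last at 23.4 and 48.1 CPM, while Vcam1 had 1176 and 1197 CPM, Ptgs2 474 and 505 CPM, Nfkbiz 483 and 462 CPM and Icam1 203 and 208 CPM. None of 20 further heat shock and chaperone genes was called (median -0.12), nor any of 13 laminar flow targets (median -0.08). Those flow targets included Timp3 at 1246 and 1469 CPM, Gja5 at 557 and 739 CPM, Aqp1 at 629 and 529 CPM and Palmd at 459 and 422 CPM.

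The integrated stress and unfolded protein response list gave 2 higher and 1 lower of 16 measured (median 0.08). Gdf15, a cytokine of stressed cells, stood out at 30.7 CPM in EC-like cells of the library labelled EC-Cx43-KO and 7.43 CPM in those of the control library (2.05, 1.46 to 2.67), and Asns had 35 and 18 UMIs. Both were also called higher in monocyte/macrophage-like cells and lower in neutrophil-like cells, and Gdf15 was higher in a class led by Fabp5. Monocyte/macrophage markers stood at 137 and 87.9 CPM in EC-like cells, and their part in the Gdf15 difference was not tested. The abundant members differed less: Hspa5 had 712 and 804 CPM, Hsp90b1 1419 and 1375 CPM, Pdia4 196 and 172 CPM and Xbp1 131 and 164 CPM (-0.32). Of 18 other genes linked to dissociation 3 were called higher, against 5.37% of all genes, and none lower, with a median of 0.28 against -0.06 over all genes. Cxcl12, a chemokine, was the most abundant of those called, at 245 and 131 CPM (0.90, 0.75 to 1.06), with Nfil3 and Tubb6 beside it; Ubb (974 and 720.4 CPM) and Id3 (863 and 684 CPM) were also above 0, whereas Eif1 (1223 and 1155 CPM) was near it.

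The module varied widely from cell to cell, with a similar range in both libraries. Each EC-like cell was thinned to 1000 UMIs, which left out 60 shallower cells in the library labelled EC-Cx43-KO and 54 in the control library. The 34 early genes then gave a median of 23 UMIs per cell in the library labelled EC-Cx43-KO and 22 in the control library, with 10th percentiles of 3.9 and 4 and 90th percentiles of 61 and 55.8. The highest cells held 126 and 105 of their 1000 UMIs in these 34 genes. Heat shock genes were sparser, with a median of 1 in both libraries and 40.4% and 38.8% of cells at 0.

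Fos, the most abundant member, showed the widest spread of thinned counts in the module in both libraries. After thinning, 72.3% of cells in the library labelled EC-Cx43-KO and 71.9% in the control library held a Fos UMI, with medians of 3 in both and maxima of 45 and 48. Its Fano factor, the variance over the mean, was 9.46 and 8.27, against 1.11 and 1.10 for the median of all genes with a mean of at least 0.1 UMI. For Fos this factor rose with the mean: in the library labelled EC-Cx43-KO it was 5.36 at 500 UMIs per cell and 16.06 at 2000. A ranking of members by it therefore also reflects their abundance. Of the members with a mean of at least 0.1 UMI, 17 of 28 and 18 of 27 lay above the 90th percentile of all genes by this measure. Those genes were not matched to the members by mean, and the part of abundance in this count was not tested. Klf2 was found in 80.2% and 82.7% of cells with Fano factors of 1.99 and 2.26, a more even pattern than that of Fos.

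Correlations between members were set beside those between all genes. Among 27 members, and therefore 351 pairs, the median correlation over thinned cells was 0.13 in the library labelled EC-Cx43-KO and 0.12 in the control library, and 288 pairs (82.1%) were above 0 in both. Over all 1516411 pairs of the 1742 genes with a mean of at least 0.1 UMI in both libraries, the medians were -0.0032 and -0.0039, and 25.6% of pairs were above 0 in both. These genes, too, were not matched to the members by mean. Ranked by the lower value of the libraries, the closest pairs were Fos with Zfp36 (0.58 and 0.57), Fos with Jund (0.52 and 0.51) and Fos with Dusp1 (0.51 and 0.51); Zfp36 and Dusp1 are genes that end the response. Over 520 and 423 cells, the early sum had a correlation of 0.24 and 0.20 with the heat shock sum and of -0.24 and -0.25 with the mitochondrial share. Cells under 2% mitochondrial UMIs stood at 35273 and 32813 CPM of early genes, and cells of 2 to 5% at 23480 and 20853 CPM. These are descriptions over cells of 1 library each, which share depth and preparation.

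**Figure D2:**
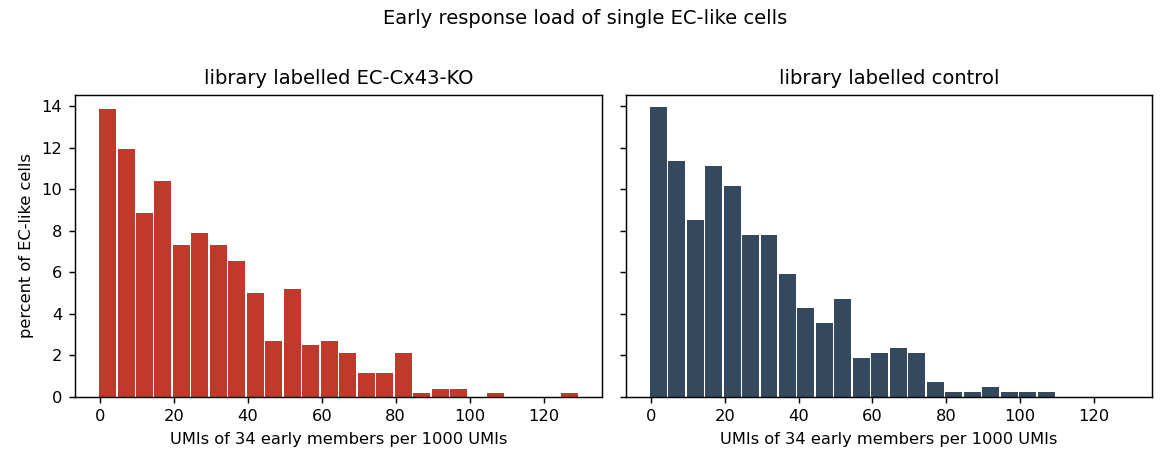
Distribution of the 34 early genes over single EC-like cells thinned to 1000 UMIs: the summed UMIs per cell on the x axis, the percent of cells on the y axis, the library labelled EC-Cx43-KO on the left and the control library on the right. Both distributions peak at low values and run out to 126 and 105 UMIs, with medians of 23 and 22.

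Part of that spread lay between the 8 EC-like subclusters. The 38 genes were left out of that clustering, but other early response genes were not, so the subclusters may themselves reflect the response. Differences between subclusters held 26.6% of the variance of the thinned early sum in the library labelled EC-Cx43-KO and 26.2% in the control library. For the heat shock sum the shares were 7.99% and 10.01%, and no such share was computed for other genes. Subclusters 4 and 7, led by Egr2 and Mt1 and by Ahsg and Adh1, stood high. Early genes made up 51589 CPM in the library labelled EC-Cx43-KO and 45484 CPM in the control library in subcluster 4, and 50864 and 45455 CPM in subcluster 7. The leading genes of subcluster 4 also included the members Fos, Dnajb1, Hspa1a, Nr4a1 and Zfp36. Subcluster 1, led by Pde7b, stood low at 16615 and 14992 CPM. In the shallow subcluster 3, led by S100a8 and Ccl2, neutrophil markers stood at 847 CPM in the library labelled EC-Cx43-KO and 1685 CPM in the control library. Over all EC-like cells they stood at 134 and 193 CPM. Monocyte/macrophage markers stood at 329 and 829 CPM in subcluster 3, and the part of such RNA in its early sum was not tested. The order of high and low subclusters was alike in the libraries. Fos alone had 13101 and 9935 CPM in subcluster 4, against 2032 and 2004 CPM in subcluster 1.

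Subcluster 5, led by Ccnd1, Procr and Ano1, was low for the early genes as a whole but rich in other members. Its early sum was 15291 CPM in the library labelled EC-Cx43-KO and 15429 CPM in the control library, and Klf2 had 1643 and 1936 CPM there. Fosl1, a late AP-1 partner among its leading genes, had 82.8 and 81.6 CPM there, from 47 and 65 UMIs, while no other subcluster held more than 7 Fosl1 UMIs in the library labelled EC-Cx43-KO or 3 in the control library. Myc had 100.5 and 102 CPM and Dusp5 61.7 and 75.3 CPM there; 35 of the 83 and 60 of the 142 Dusp5 UMIs came from this subcluster. Hspa1b was lower in the library labelled EC-Cx43-KO in each of the 8 subclusters. The gap was widest in subcluster 6, at 103 CPM in the library labelled EC-Cx43-KO and 279 CPM in the control library, and narrow in subclusters 7 (134 and 144 CPM) and 8. Subcluster 6 had 40 and 39 cells, with Col3a1 and Dcn among its leading genes. Its fibroblast markers, at 2289 and 1755 CPM, were the highest of the 8 subclusters, and their part in the gap was not tested.

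**Figure D3:**
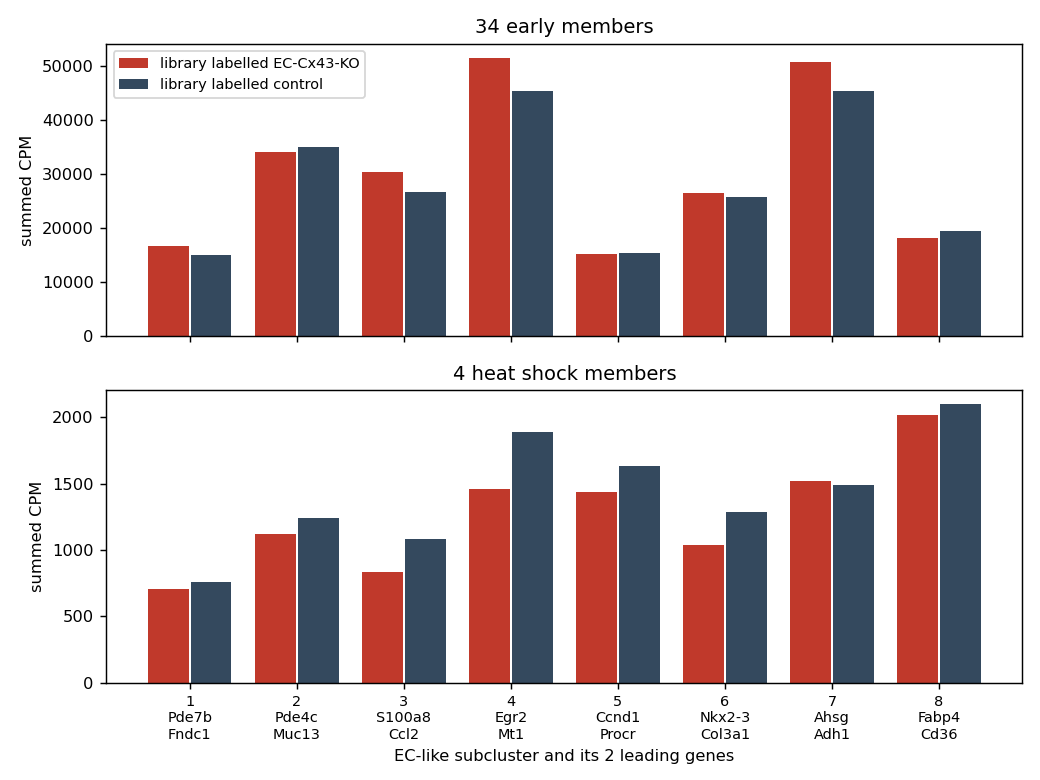
Summed CPM of the 34 early genes (top) and the 4 heat shock genes (bottom) in 8 EC-like subclusters, each with its 2 leading genes; in each pair the left bar is the library labelled EC-Cx43-KO and the right bar the control library. Early genes are high in subclusters 4 and 7 and low in 1, 5 and 8 in both libraries, while heat shock genes are high in 8.

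Across cell classes the leading class differed between members, also within a working group. Of the 8 classes described, EC-like cells had the highest CPM in both libraries for 9 members, against 10.6% of all 17574 genes measured: Fos, Jun, Jund, Klf2, Klf4, Zfp36, Ier2, Ppp1r15a and Hspa1a. For Klf4 the next class had 1004 CPM in the library labelled EC-Cx43-KO and 1123 CPM in the control library, both in fibroblast-like cells, against 2091 and 1947 CPM in EC-like cells. For Zfp36 the control intervals of EC-like and neutrophil-like cells overlapped, at 1747 and 1741 CPM. For the other 8 the EC-like intervals lay above those of each other class.

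Neutrophil-like cells led for another 9, against a background of 9.09%: Fosl2, Egr3, Klf6, Ier3, Ier5, Gadd45b, Mcl1, Dusp1 and Nfkbia. These include the inhibitors of 2 pathways, Dusp1 at 6324 CPM in the library labelled EC-Cx43-KO and 7163 CPM in the control library, and Nfkbia at 3078 and 3137 CPM. Nfkbia there was 3.53 and 3.85 times its level in the next class. The neutrophil-like profile was poor in Fos, at 808 and 668 CPM, and in Klf4, at 54.0 and 38.6 CPM.

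SMC-like (smooth muscle) cells led for Nr4a1, Nr4a2 and Btg2, 3 members against 9.49% of all genes; Nr4a1 had 794 CPM in the library labelled EC-Cx43-KO and 826 CPM in the control library. Fibroblast-like cells led for Fosl1, Myc and Socs3 (background 11.6%), T/NK-like cells for Nr4a3, Dusp2 and Dusp5 (10.8%), and monocyte/macrophage-like cells for Egr2 and Hspa8 (3.0%). The intervals lay above those of each other class for all 9 members led by neutrophil-like cells, for the 3 led by SMC-like cells and for Hspa8, but for none led by fibroblast-like or T/NK-like cells, nor for Egr2. The lead was as small as 1.005 times the next class for Nr4a3 in the control library and 1.021 times for Dusp5 in the library labelled EC-Cx43-KO. Socs3 in fibroblast-like cells, at 205 and 195 CPM, was close to neutrophil-like cells in the control library, at 191 CPM. Egr1 showed no single leader: EC-like cells were highest in the library labelled EC-Cx43-KO (2295 CPM) and SMC-like cells in the control library (2272 CPM). The other 8 without a common leader, Fosb, Junb, Atf3, Maff, Zfp36l1, Btg1, Hspa1b and Dnajb1, had different leading classes in the libraries.

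**Figure D4:**
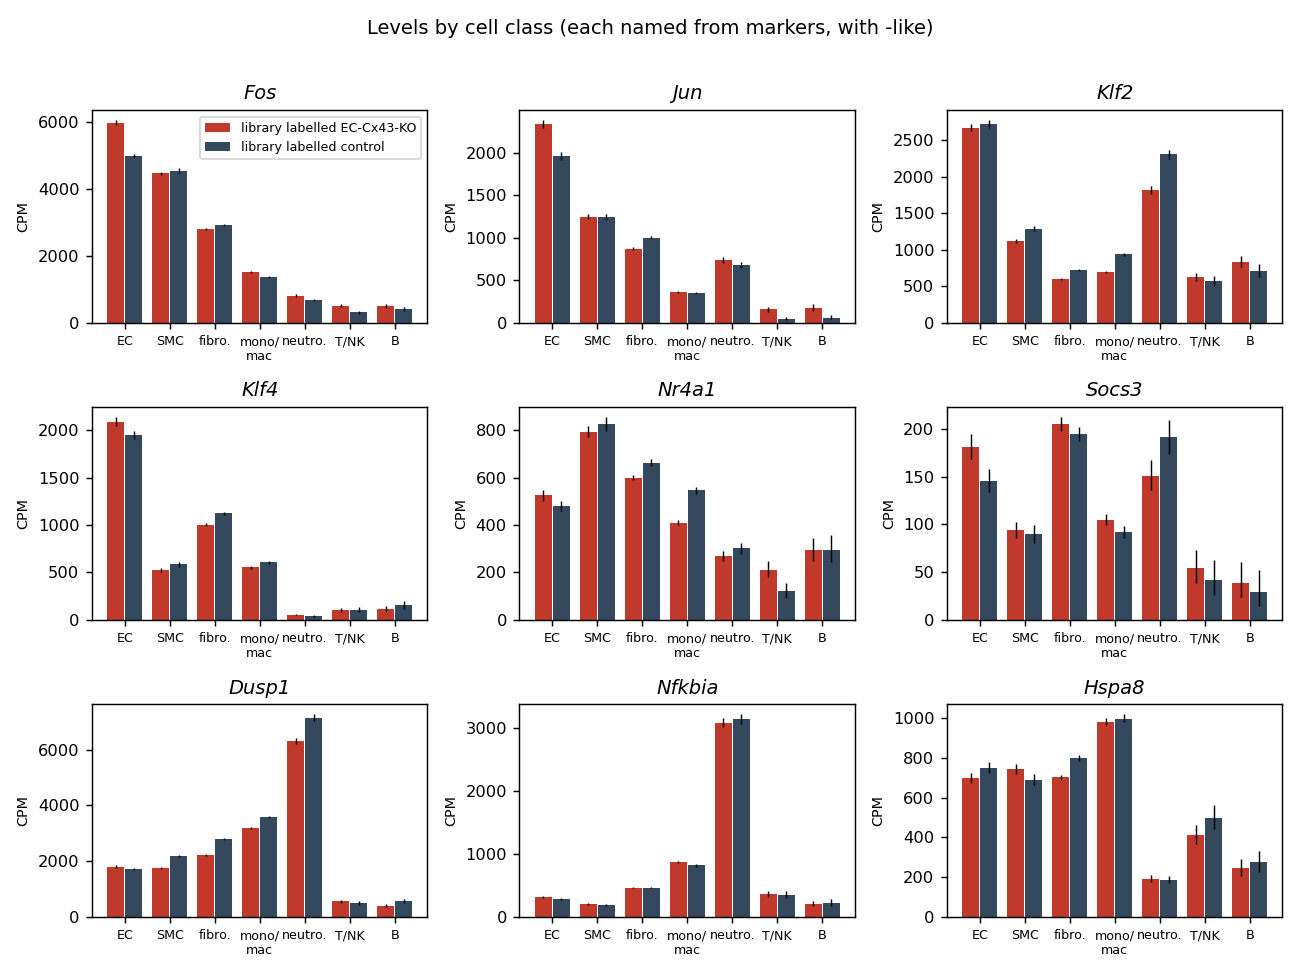
CPM of 9 members in 7 marker-named classes, with exact Poisson intervals at 95%; in each pair the left bar is the library labelled EC-Cx43-KO and the right bar the control library. Fos, Jun, Klf2 and Klf4 are highest in EC-like cells, Dusp1 and Nfkbia in neutrophil-like cells, Nr4a1 in SMC-like, Socs3 in fibroblast-like and Hspa8 in monocyte/macrophage-like cells.

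Between the libraries, the large stromal and myeloid classes differed little. In SMC-like cells 1 of 37 members was called higher and none lower, against 5.61% and 4.67% of all genes. That member was Hspa1b, with 903 UMIs, or 169 CPM, in the library labelled EC-Cx43-KO and 401 UMIs, or 98.4 CPM, in the control library (0.78, 0.61 to 0.95). A single cell gave 81 of the 903 UMIs, against at most 16 per cell in the control library, and after thinning 11.6% (9.05% to 14.6%) and 9.07% (6.40% to 12.4%) of cells held a Hspa1b UMI, intervals that overlap. With Hspa1a added the sum was 387 and 282 CPM (0.46). Among SMC-like cells with Y-linked and no Xist UMI the Hspa1b ratio was -0.71, the opposite direction. Hspa1b was lower in fibroblast-like cells of the library labelled EC-Cx43-KO, under the 1.5-fold rule, and there the sum with Hspa1a was 135 and 191 CPM (-0.50).

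In fibroblast-like cells 1 of 38 members, Dusp2, was called higher from 17 and 9 UMIs with an interval that included 0, and none lower (background 5.8% and 5.51%). In monocyte/macrophage-like cells Dusp2 was again the sole call, higher at 34.3 CPM in the library labelled EC-Cx43-KO and 22.7 CPM in the control library (0.59, 0.35 to 0.84; background 8.37% higher and 5.45% lower). The clusters in that class were unevenly filled: a Cxcl10-led cluster had 237 cells in the library labelled EC-Cx43-KO and 31 in the control library, a Lyve1-led one 242 and 85, an Ltc4s-led one 454 and 652 and a Chil3-led one 691 and 657. The part of this in the Dusp2 ratio was not tested. In neutrophil-like cells Dnajb1 was higher from 90 and 41 UMIs (1.05, 0.50 to 1.62) and Myc lower from 13 and 24 UMIs with an interval that included 0 (background 9.12% and 10.8%). Dnajb1 was found in 2.99% and 1.23% of thinned neutrophil-like cells, and its ratio was -0.75 among cells with Y-linked and no Xist UMI. In a class led by Fabp5, which stayed unnamed because platelet markers were among its leading genes, Maff (100 and 69 UMIs), Dusp2 (85 and 53 UMIs) and Fosl1 were higher and Nr4a3 (95 and 188 UMIs, -0.59) lower, against 5.41% and 5.38% of all genes. All 15 monocyte/macrophage markers were detected in that class, at 12638 and 11754 CPM, beside 14389 and 13360 CPM in monocyte/macrophage-like cells.

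T/NK-like lymphocytes showed the most calls. Of 35 members measured, 11 were called higher and none lower, where 11.5% of all 7400 genes were called higher and 12.4% lower; for 8 of the 11 the interval lay above 0. Jun had 113 UMIs, or 156 CPM, in the library labelled EC-Cx43-KO and 22 UMIs, or 41.4 CPM, in the control library (1.91, 1.24 to 2.64), and Egr1 had 264.5 and 109 CPM (1.28). Fos had 512 and 309 CPM (0.73), Fosb 284 and 177 CPM (0.68), Nr4a1 211 and 120.5 CPM (0.81), and Zfp36l1 559 and 363 CPM (0.62). Atf3 (38 and 13 UMIs) and Ppp1r15a (86 and 41 UMIs) completed the 8, and Egr3, Myc and Dnajb1 were called from under 50 UMIs. A few cells carried much of this: 1 cell of the library labelled EC-Cx43-KO held 21 of its 113 Jun UMIs and 1 held 38 of its 192 Egr1 UMIs.

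The T/NK-like clusters differed. In the largest, led by Lef1 (125 cells in the library labelled EC-Cx43-KO and 77 in the control library), Egr1 had 336 and 88.0 CPM and Jun 186 and 36.9 CPM. In the next, led by Arpp21 and Themis (56 and 45 cells), Egr1 ran the other way, at 13 and 19 UMIs or 89.6 and 210.2 CPM, and Jun had 16 and 8 UMIs. In the smallest, led by Gzma (22 and 21 cells), Egr1 had 9 and 8 UMIs and Jun 3 and 1.

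Shares of cells told less than summed levels in the lymphocytes. After thinning, which kept 174 cells of the library labelled EC-Cx43-KO and 118 of the control library, Jun was found in 9.20% (5.35% to 14.5%) and 3.39% (0.93% to 8.45%) of T/NK-like cells, and Fos in 24.7% (18.5% to 31.8%) and 18.6% (12.1% to 26.9%). Nr4a1 was found in 16.1% and 5.08%, with intervals of 10.97% to 22.4% and 1.89% to 10.7% that did not overlap. The level that free RNA would give, estimated from markers in classes that should lack them, was 38.9 and 34.3 CPM for Jun. In T/NK-like cells of the control library 41.4 CPM was measured. That estimate used 1 median share of the library profile over several classes, 4.73% and 4.24%. In T/NK-like cells fibroblast markers gave 3.16% and 2.75% and SMC markers 2.12% and 1.59%, so the free RNA level of Jun in these cells is uncertain. The 17 endothelial markers stood at 380.2 CPM (16 detected) and 322 CPM (9 detected) in T/NK-like cells and the 5 plasma cell markers at 919 and 71.5 CPM. Their part in the result was not tested. Nr4a1 and Zfp36l1 changed direction with at least 500 genes per cell, at -0.23 and -0.027, and the median of the members, 0.24, was -0.15 among cells with Xist and no Y-linked UMI. The 11 calls became 4 when cells of up to 25% mitochondrial UMIs were kept.

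B-like cells, 170 in the library labelled EC-Cx43-KO and 103 in the control library, gave 3 members higher and 1 lower of 32, against 8.87% and 14.1% of all genes. Jun had 177 CPM in the library labelled EC-Cx43-KO and 60.3 CPM in the control library (1.55, 0.88 to 2.28) and Egr1 333 and 194 CPM (0.78, 0.38 to 1.19). Jun was found in 11.6% and 7.29% of thinned B-like cells, with overlapping intervals. Fosl2 was called higher and Nr4a3 lower from intervals that included 0.

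**Figure D5:**
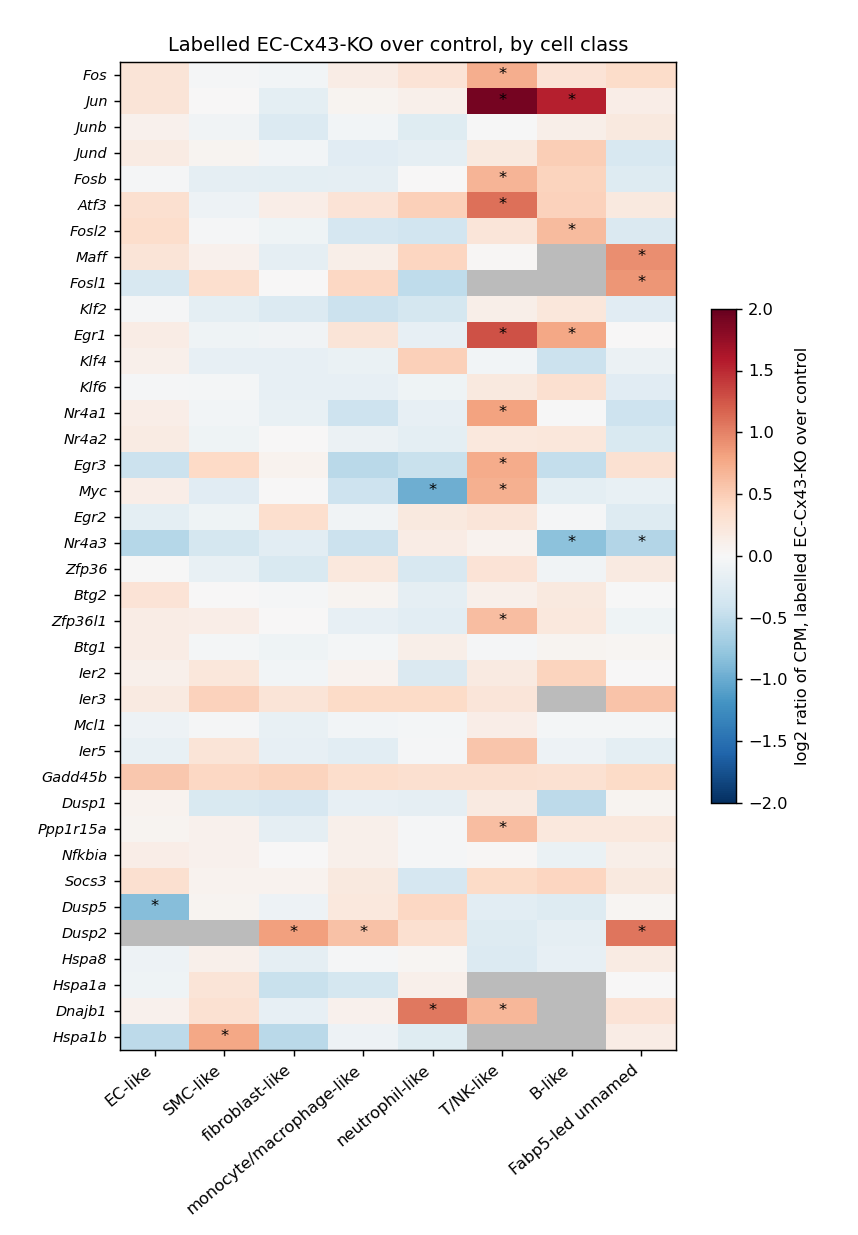
Log2 ratio of CPM, library labelled EC-Cx43-KO over control library, for 38 genes (rows) in 8 classes (columns); an asterisk marks a size of at least 0.58 and grey fewer than 20 UMIs. Most cells of the map are pale, and the marked ones gather in the T/NK-like column, where 11 are marked, all higher.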

How the data were processed

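The authors deposited raw UMI counts per gene and barcode for 2 single-cell 3′ libraries, made with Cell Ranger 8.0.1 per the file headers; STAR, without a version, and the build mm10 are named in the submitters' processing notes. No barcode had fewer than 501 UMIs. The genes and lists, and the rule that names them, were chosen with earlier results of these data known: every member is named, with full values in other classes where a call rested on at least 50 UMIs, and up to 4 abundant genes of each other list. Members called from fewer UMIs, and Nfkbie, Sele, Ccl2, Asns, Gdf15, Nfil3, Cxcl12 and Tubb6, were named after their values were seen.

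Barcodes under 300 genes or over 15% mitochondrial UMIs were left out (too few genes: 255 and 224; too many mitochondrial UMIs: 348 and 335 in the library labelled EC-Cx43-KO and the control library). Simulated doublets were used to rank cells, and 476 and 363 were removed at an assumed rate of 0.008 per 1000 cells. Cells were clustered on 2000 variable genes without the 38 members and Gja1 (30 components, 20 neighbours, leidenalg 0.10.2, resolution 1.0, 26 clusters). A class was named from at least 3 markers detected, a limit on which names could compete that was set after the clusters were seen. EC-like cells were clustered again in the same way at resolution 0.6.

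For each class, the UMIs of a library were added up and scaled to CPM. A gene under 3 UMIs in a library took 3 there. Intervals at 95% are exact Poisson for levels, exact conditional binomial for ratios and Clopper-Pearson for shares; code was tested on simulated data. Molecules are counted once, so intervals cover counting error alone. Only classes of at least 100 cells per library are described, without a Cacna1d-led unnamed class (299 and 285 cells) that was left out for its shallow cells, at median 1297 and 1232 UMIs. Python 3.11.15 and SciPy 1.17.1 were used. Alternatives covered filters, doublets, resolution, scaling, free RNA, UMI limits, sex-linked UMIs, thinning and promoter window. Some genes of the other lists are not reported here.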

Additional observations from a re-analysis of the deposited data

How the results depend on the processing

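No paired analysis was possible because each group has 1 library. The EC-like and B-like medians stayed above 0 under each alternative run for them. In EC-like cells, against 0 members called higher and 1 lower, 2 were lower with at least 500 genes per cell, with up to 25% mitochondrial UMIs, with free RNA subtracted and without subcluster 5. Counts of 1 higher and 2 lower came with at most 10% mitochondrial UMIs and without subcluster 2, 7 or 8. Median-of-ratios scaling gave 1 higher, the mean of single-cell CPM 2 higher (Dusp5 at 0.036), kept doublets 2 higher and 3 lower, and a log2 limit of 1 gave 0 lower. Cells with Xist alone gave 3 higher and 2 lower, and those with Y-linked UMIs alone 3 and 3.

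In T/NK-like cells, against 11 higher, 0 lower and a median of 0.24, up to 25% mitochondrial UMIs gave 4, 1 and 0.049, with Atf3 at -0.086, Nr4a1 at -0.37 and Zfp36l1 at -0.18. Kept doublets gave 7 higher and 0.13, with Nr4a1 at -0.016 and Zfp36l1 at -0.14; at least 500 genes gave -0.23 and -0.027 for this pair of genes. The mean of single-cell CPM gave 1 lower and a median of 0.12, at least 100 UMIs 7 higher, and a log2 limit of 1 gave 3 higher. Xist-only cells gave 6 higher, 1 lower and -0.15, and Y-only cells 1 lower. The largest T/NK-like cluster alone, an alternative chosen after seeing the data, gave 11 higher, 0 lower and a median of 0.265, with Egr1 at 1.93.

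In B-like cells, against 3 higher and 1 lower, there were 6 higher with up to 25% mitochondrial UMIs, 5 and 2 with doublets, 3 lower with free RNA subtracted, 0 lower at 100 UMIs, 1 and 0 at a log2 limit of 1, 6 and 2 in Xist-only cells and 6 and 3 in Y-only cells. Summed over SMC-like, fibroblast-like, monocyte/macrophage-like and neutrophil-like cells, 4 were higher and 1 lower. This became 0 lower with 500 genes and with 100 UMIs, 2 and 2 at 10% mitochondrial UMIs, 1 and 0 at a log2 limit of 1, and 12 and 6 in Xist-only cells. It became 8 lower in Y-only cells, with Hspa1b at -0.71 in SMC-like and Dnajb1 at -0.75 in neutrophil-like cells. There were 3 lower at resolution 0.6, and 2 lower with doublets, free RNA subtracted, single-cell means or the members among the clustering genes. The Fos share in EC-like cells was 63.8% in the library labelled EC-Cx43-KO and 62.5% in the control library at 500 UMIs, and 82.3% and 78.7% at 2000 UMIs. The causes were not tested. Small classes limit the depth: ratios of members under 50 UMIs have wide counting intervals, and no setting replaces a second library per group.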
